A study of Rattus norvegicus with 9 samples.

Results

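The genes described here are 6 genes of blood monocyte type, Ccr2, Plac8, Fn1, Vcan, S100a4 and S100a6, of the 28343 genes in a table of read counts from CD11b-positive cells sorted from rat retina. They were chosen by name, with earlier results of these data known, and each symbol has 1 row in the table. The cells came from Dark Agouti rats, an inbred strain, 8 to 10 weeks old, that were injected with streptozotocin (55 mg/kg, after 12 hours without food), which kills pancreatic beta cells and causes diabetes, or given citrate buffer instead. Diabetic rats received 2 units of insulin (Protaphane) when blood glucose was above 30 mmol/l, and retinas of both groups were collected 4 weeks after the injection, digested with papain and sorted on a CD11b antibody. There were 5 control libraries (replicates 1, 3, 4, 5 and 6) and 4 diabetic libraries (replicates 1, 2, 4 and 5). The labels do not say whether retinas were pooled, and p-values measure the spread between these libraries.

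Classical monocytes are short-lived myeloid cells that leave the bone marrow under the control of the chemokine receptor CCR2 and enter tissue from the blood, where they can become macrophages. Microglia, the resident macrophages of the retina, come from the yolk sac and are maintained without blood monocytes. Both carry CD11b, so a sort on this antigen does not separate them. In sorted bulk RNA a lower level can mean fewer cells of a type or less RNA per cell, and these cannot be told apart here. The members have different roles: CCR2 is the receptor for CCL2, PLAC8 is a small cysteine-rich protein of monocytes and neutrophils, FN1 (fibronectin) and VCAN (versican) are matrix molecules, and S100A4 and S100A6 are small calcium-binding proteins. Fibronectin and versican are also made by vascular, glial and connective tissue cells, and S100A4 and S100A6 by many cell types. The set as a whole is therefore not restricted to myeloid cells of the blood.

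Total counts were 9156591 to 11332823 in control libraries and 6228756 to 9629829 in diabetic libraries, the lowest in diabetic 4. Genes used here as microglia markers were present in every library: P2ry12, a purinergic receptor, measured 1366 to 1916 CPM (read counts scaled to library size with TMM factors) and Cx3cr1, the fractalkine receptor, 1666 to 2536 CPM. Cx3cr1 was not taken to tell microglia from monocytes. Some genes that every cell uses had few or no reads in the table. Hprt1, of purine salvage, was at 0 in all 9 libraries, Myh9, non-muscle myosin, was at 0 in 8 of 9, and Gapdh, of glycolysis, had 14 to 71 counts. They are from a set of 23 widely expressed genes put together after the zeros of Myh9 were seen; Actb, at 117784 to 204375 counts, was the highest. A 0 in this table is therefore given as listed at 0 and not as absence of the transcript.

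The upstream sequences of the 3 members with higher diabetic than control means are shown first. They are the 250 bases before a RefSeq transcription start, all on the plus strand. The build is GRCr8, later than the Rnor6 of the reads. The windows are chr14:9356700-9356949 for Plac8, chr2:178388279-178388528 for S100a4 and chr2:178398287-178398536 for S100a6. The S100a6 window lies inside the gene's RefSeq span (chr2:178398189-178399763), so its transcription start is not the first base of that span. The S100a4 and S100a6 windows lie close together in the S100 gene cluster. Capitals mark matches, on either strand, to 5 motifs searched: TATAAA (core promoter box), GAGGAA (core of a PU.1 site), TTGCNNAA (C/EBP), TGANTCA (AP-1) and CCAAT. No motif overlapped another match.
Plac8: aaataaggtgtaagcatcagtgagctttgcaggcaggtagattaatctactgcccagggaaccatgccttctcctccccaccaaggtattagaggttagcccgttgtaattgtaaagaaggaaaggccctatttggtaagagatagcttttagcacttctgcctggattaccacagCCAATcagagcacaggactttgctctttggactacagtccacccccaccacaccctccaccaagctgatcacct
S100a4: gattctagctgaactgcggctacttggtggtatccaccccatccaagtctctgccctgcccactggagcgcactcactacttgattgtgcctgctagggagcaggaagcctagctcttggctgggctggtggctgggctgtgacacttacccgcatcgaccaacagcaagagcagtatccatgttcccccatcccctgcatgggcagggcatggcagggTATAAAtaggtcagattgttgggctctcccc
S100a6: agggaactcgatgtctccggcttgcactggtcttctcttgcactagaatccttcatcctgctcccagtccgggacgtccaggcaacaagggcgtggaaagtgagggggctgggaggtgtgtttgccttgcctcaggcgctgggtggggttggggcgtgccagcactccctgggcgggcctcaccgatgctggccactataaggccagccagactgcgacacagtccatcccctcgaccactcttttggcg
Plac8 held 1 match, CCAAT at position -74 from the start, and S100a4 held 1, TATAAA at position -31. S100a6 held none of the 5. Among 33469 RefSeq windows of the same length, 34.0% held CCAAT, 12.9% TATAAA, 23.3% GAGGAA, 9.22% TTGCNNAA and 6.34% TGANTCA. The 3 windows had no match in common. Of the members not shown, Vcan had 2 windows. In 1 of them CCAAT, the motif also found for Plac8, lay at position -167 on the strand opposite to the gene. Ccr2 had TTGCNNAA at position -208, in a window that also lies inside the gene's RefSeq span. Fn1 had no window in the table.

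Over the 6 members, 4 passed the filter on low counts and were tested (Plac8, S100a4, S100a6 and Fn1), Vcan had 6 counts in all, and Ccr2 was listed at 0. Plac8, S100a4 and S100a6 measured higher means in diabetic than in control libraries, and Fn1 did not. In edgeR's quasi-likelihood test 0 of the 4 passed an adjusted p of 0.05, where 0.0681% of the 11748 genes tested did. At an unadjusted p below 0.05 there were 3 of 4, all with higher diabetic values, where 8.94% of tested genes had such a p with higher values. At a looser adjusted p of 0.1 there was 1 of 4, Plac8 with higher values, against 1.05% of tested genes with higher values, 0.851% with lower values and 1.9% in either direction. At an adjusted p of 0.05 with higher diabetic values the share over all tested genes was 0.0426%. DESeq2 called 1 member (Plac8, higher), where it called 3.34% of 17805 genes (1.58% higher and 1.75% lower), and limma-voom 0, where it called 0.034%. These shares are the background for the counts of the gene lists too. The median log2 fold change of the 4 tested members was 1.00, against 0.0018 over all genes tested. In an alternative added after the data were seen, controls 4 and 6 were left out. There 2 of 4 members were higher at an unadjusted p below 0.05. Because the members were chosen with earlier results of these data known, the contrasts with all genes are descriptions and not tests.

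**Figure D1:**
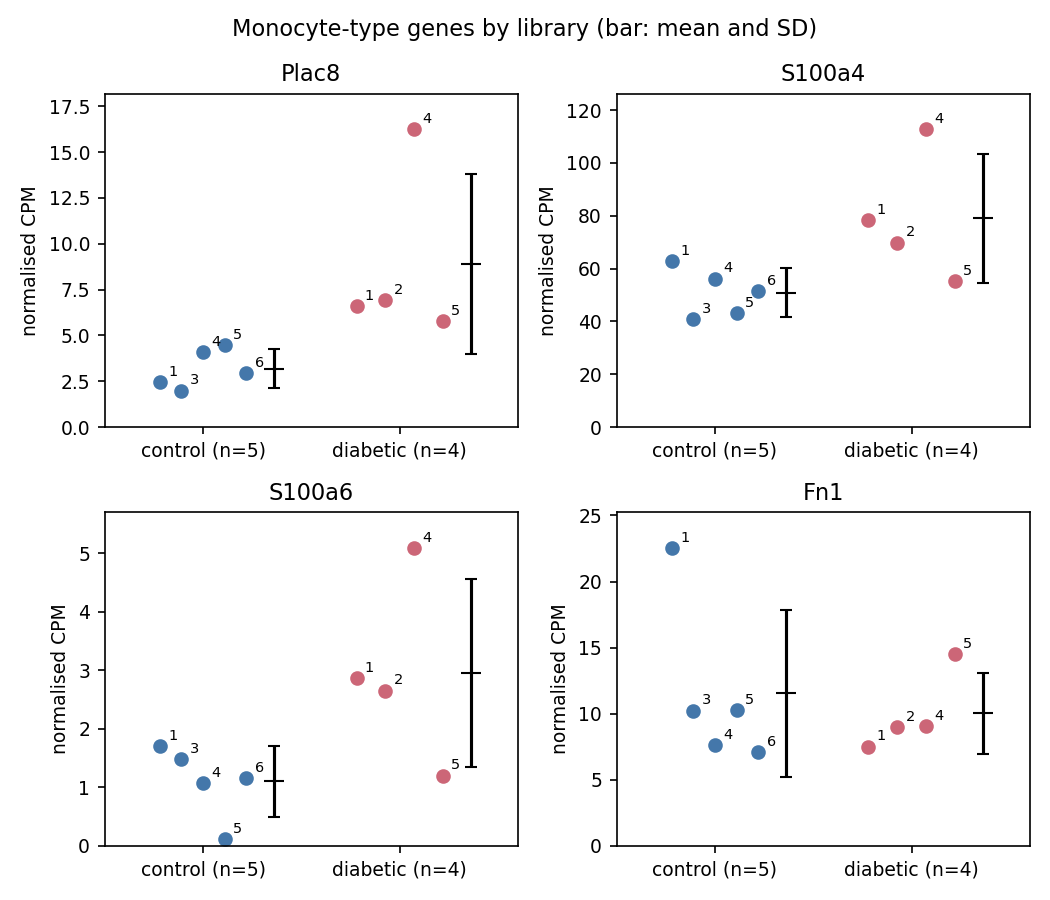
Normalised CPM (vertical axes, each from 0) of the 4 tested members in each of the 5 control (blue) and 4 diabetic (red) libraries, numbered by replicate, with the mean and SD beside each group. All 4 diabetic libraries lie above all control libraries for Plac8 alone, and diabetic 4 is the highest library for Plac8, S100a4 and S100a6.

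Ccr2, the receptor that defines classical monocytes, had 0 counts in each of the 9 libraries. Over the 84533787 counts of the series a count of 0 allows up to 0.0355 CPM (3 counts), for counting error only. The transcript assemblies held no reference transcript of Ccr2, and none of Plac8, Fn1 or Vcan either, although Plac8 and Fn1 had counts in all 9 libraries.

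The ligands of CCR2 were measured in the same cells. Ccl2, the main ligand, averaged 358 ± 358 CPM in controls (SD, n = 5) and 247 ± 86.2 CPM in diabetic rats (SD, n = 4), and controls 4 (541 CPM) and 6 (905 CPM) stood above the other controls (87.1 to 145 CPM). The difference was -0.53 on the log2 scale (SE 0.82, quasi-likelihood adjusted p = 0.733). Ccl7, a second ligand, measured 7.55 to 70.9 CPM in control and 25.4 to 76.9 CPM in diabetic libraries, and Ccl12, a further ligand, 1.82 to 5.05 and 2.25 to 8.19 CPM. The groups overlapped for all 3 ligands, with quasi-likelihood adjusted p-values of 0.521 for Ccl7 and 0.311 for Ccl12.

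Plac8 had 26, 23, 38, 42 and 23 counts in controls 1, 3, 4, 5 and 6 and 67, 68, 102 and 58 counts in diabetic 1, 2, 4 and 5. Scaled to library size these were 2.45, 1.99, 4.08, 4.49 and 2.96 CPM in control and 6.61, 6.94, 16.2 and 5.80 CPM in diabetic libraries. Every diabetic library lay above every control library, a pattern that 4.27% of all tested genes shared, and diabetic 4 was the highest library. The log2 fold change was 1.46 (SE 0.46), or 2.76-fold (quasi-likelihood adjusted p = 0.0947, short of the threshold), and 161 genes had a smaller p. Without diabetic 4 the log2 fold change was 1.01 (quasi-likelihood adjusted p = 0.271) and the groups still did not overlap.

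Plac8 was called by the DESeq2 Wald test (log2 fold change 1.46, adjusted p = 0.00898). Plac8 stands in the authors' deposited table at 1.57 on the log2 scale (adjusted p = 0.00498). Of the 12069 genes of the authors' deposited table, 1.92% are higher in diabetic cells and 0.182% lower at an adjusted p below 0.05. Without normalization factors, the fit here gave log2 fold changes near the authors' values: 1.57 for Plac8, 0.74 for S100a4, 1.48 for S100a6 and -0.13 for Fn1. In that setting the median over all tested genes was 0.12, against 0.0018 with TMM factors.

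S100a4, which binds non-muscle myosin and is high in monocytes and in motile cells, was the most abundant member by counts. It measured 63.0, 40.9, 56.2, 43.1 and 51.5 CPM in controls 1, 3, 4, 5 and 6 and 78.5, 69.8, 113 and 55.4 CPM in diabetic 1, 2, 4 and 5. Diabetic 1, 2 and 4 lay above all controls, and diabetic 5 lay below control 1 and control 4. Controls averaged 50.9 ± 9.14 CPM (SD, n = 5) and diabetic rats 79.1 ± 24.4 CPM (SD, n = 4). The log2 fold change was 0.63 (SE 0.24), or 1.55-fold (quasi-likelihood adjusted p = 0.133), and it was 0.41 without diabetic 4 (quasi-likelihood adjusted p = 0.346). S100a4 stands in the authors' deposited table at 0.74 on the log2 scale (adjusted p = 0.0258).

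S100a6, also called calcyclin, had 18, 17, 10, 1 and 9 counts in controls 1, 3, 4, 5 and 6 and 29, 26, 32 and 12 counts in diabetic 1, 2, 4 and 5. These were 1.70, 1.47, 1.07, 0.107 and 1.16 CPM in control and 2.86, 2.65, 5.10 and 1.1996 CPM in diabetic libraries. Diabetic 1, 2 and 4 lay above all controls, and diabetic 5, at 1.1996 CPM, lay between control 6 and control 3. The log2 fold change was 1.37 (SE 0.63, quasi-likelihood adjusted p = 0.215), its 95% interval 0.14 to 2.60. It was 1.09 without control 5 (quasi-likelihood adjusted p = 0.250) and 1.00 without diabetic 4 (quasi-likelihood adjusted p = 0.477). For S100a6 the value of the authors' deposited table is 1.49 on the log2 scale (adjusted p = 0.136).

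A second reading of S100a4 and S100a6 came from the transcript assemblies, where levels are per length. The reference transcript of S100a4 (gene ENSRNOG00000011821, Rnor6 chr2:189997129-189999604, plus strand) was assembled in 5 libraries and that of S100a6 (gene ENSRNOG00000011647, chr2:190007216-190008511, plus strand) in 2. TPM is a unit scaled to transcript length and library size. Summed over all assembled transcripts in the span on either strand, S100a4 measured 153, 42.0, 50.7, 67.5 and 57.9 TPM in controls 1, 3, 4, 5 and 6 and 139, 117.5, 122 and 59.9 TPM in diabetic 1, 2, 4 and 5. Control 1 lay above all diabetic libraries on this scale, and the log2 fold change on the log2(TPM + 0.1) scale was 0.66 (limma adjusted p = 0.590). The reference transcript of S100a4 itself measured 35.6, 44.3 and 30.8 TPM in controls 3, 4 and 6. In diabetic 4 and 5 it measured 90.5 and 49.98 TPM. It was not assembled in controls 1 and 5 or diabetic 1 and 2, where the sums come from other transcripts in the span. S100a6 had assembled transcripts in control 3 (0.740 TPM), diabetic 2 (4.77 TPM) and diabetic 4 (5.77 TPM) alone. Per length, S100a4 was above S100a6 in all 9 libraries.

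Fn1, the gene of fibronectin, a matrix glycoprotein bound by integrins, was highest in a control library. It measured 22.6, 10.2, 7.63, 10.3 and 7.09 CPM in controls 1, 3, 4, 5 and 6 and 7.50, 8.98, 9.08 and 14.5 CPM in diabetic 1, 2, 4 and 5. Control 1 stood apart, and the other controls fell in the range of the diabetic libraries except control 6, which was just below it. The log2 fold change was -0.21 (SE 0.35, quasi-likelihood adjusted p = 0.760) with a 95% interval of -0.90 to 0.48, and it was 0.18 without control 1 (quasi-likelihood adjusted p = 0.677) and -0.53 with controls 4 and 6 left out (quasi-likelihood adjusted p = 0.468). For Fn1 the value of the authors' deposited table is -0.13 on the log2 scale (adjusted p = 0.904).

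Vcan, the gene of versican, a large chondroitin sulphate proteoglycan, had 4 counts in control 1, 2 in diabetic 1 and 0 in the remaining 7 libraries. It did not pass the filter, and a difference between groups was not detectable at this depth. A count of 0 allows up to 0.265 to 0.482 CPM in a single library, for counting error only. Control 1 was thus the highest library for both matrix members. It also had the highest sum of endothelial and mural cell markers (10 genes, 295 CPM, against 146 to 207 CPM in the other controls and 112 to 177 CPM in diabetic libraries) and of fibroblast markers (7 genes, 11.6 CPM, against 1.16 to 3.98 CPM and 1.43 to 6.32 CPM). Of the fibroblast markers Col1a2, Dcn and Lum were at 0 everywhere. The part of these cells in the Fn1 and Vcan counts was not tested.

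Receptors and partners of the matrix members were given by lists. Of 9 genes that bind or crosslink fibronectin, 8 were tested, and 1 had a log2 fold change above 0, with a median of -0.60. The quasi-likelihood test called 0 of them (1 higher and 4 lower with an unadjusted p under 0.05, against 8.94% and 10% of all tested genes), limma-voom 0 and DESeq2 2, both lower (Itgb1 and Tgm2, a transglutaminase), against 1.75% of all genes. The list summed to 1837 and 2237 CPM in controls 4 and 6, to 1051 to 1175 CPM in the other controls and to 832 to 1030 CPM in diabetic libraries. Genes of the response to cell isolation were also highest in controls 4 and 6 (18600 and 24467 CPM in sum, against 3598 to 8309 CPM in the other controls and 10904 to 16306 CPM in diabetic libraries). With these 2 controls left out, an alternative added after the data were seen, 3 of 8 log2 fold changes were above 0, with a median of -0.24, and 2 were lower with an unadjusted p under 0.05. Itgb1, the beta chain shared by fibronectin receptors, measured 868 to 943 CPM in control and 618 to 739 CPM in diabetic libraries without overlap, a pattern of lower values that 4.16% of tested genes shared. The difference was -0.38 on the log2 scale (SE 0.11, quasi-likelihood adjusted p = 0.0892). Itga5, the alpha chain of the classical fibronectin receptor, measured 48.6 to 168 and 46.7 to 69.8 CPM, and Itga4, the alpha chain of VLA-4, 13.02 to 20.2 and 9.08 to 18.0 CPM, with overlap for both. Of 17 partners and proteases of versican 6 were tested and 0 passed in edgeR, DESeq2 or limma-voom (1 lower at an unadjusted quasi-likelihood p below 0.05). Cd44, a hyaluronan receptor, measured 11.04 to 23.7 and 12.1 to 18.2 CPM, and Hapln1, a link protein of versican and hyaluronan, had 1 count in the series.

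The other genes of the S100 list gave context for S100a4 and S100a6. Of 14 symbols 8 were tested, and 8 of 8 had a log2 fold change above 0, with a median of 0.77, where 50.3% of all genes tested and 77.3% of those with reference transcripts up to 600 bases were above 0, the latter with a median of 0.41. The reference transcripts of S100a1, S100a8, S100a9 and S100a13 have 285 to 528 bases. The quasi-likelihood test called 0 (5 at an unadjusted p below 0.05, all higher, against 8.94% of all tested genes), limma-voom 0 and DESeq2 3 (S100a8, S100a9 and S100a10), against 1.58% of all genes. Without controls 4 and 6, 7 of 8 were above 0, and 3 were higher at an unadjusted p below 0.05. One of the 8, S100pbp, encodes a binding protein and not an S100 protein. S100a10, the light chain partner of annexin A2, measured 13.9 to 20.4 CPM in control and 24.9 to 36.8 CPM in diabetic ones, a difference of 0.78 on the log2 scale (SE 0.21, quasi-likelihood adjusted p = 0.0620). S100a1 (0.780 to 1.39 and 1.599 to 2.87 CPM), S100a8 (0 to 0.849 and 1.43 to 10.2 CPM) and S100a9 (0.214 to 5.57 and 14.8 to 52.9 CPM) did not overlap between groups either. Higher values without overlap were found for 4.27% of all tested genes. S100a8 and S100a9 form calprotectin, the main cytosolic protein of neutrophils, which classical monocytes also make. S100a13 overlapped between groups (1.23 to 2.15 and 2.07 to 4.14 CPM), as did S100b, of glia (3.64 to 9.72 and 4.80 to 9.58 CPM). S100a11 had 0 to 7 counts in control and 5 to 10 in diabetic libraries and was not tested.

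Binding partners of the 2 S100 members were 11 genes, of which 10 were tested, with 4 log2 fold changes above 0. The quasi-likelihood test called 0 (1 higher and 2 lower with an unadjusted p under 0.05), limma-voom 0 and DESeq2 2, Anxa1 with higher and Cacybp with lower values. Over all genes the shares were 8.94% and 10% at that unadjusted p and 1.58% and 1.75% by DESeq2. Cacybp, the calcyclin-binding protein, measured 141 to 229 CPM in control and 122 to 135 CPM in diabetic libraries without overlap. The difference was -0.57 on the log2 scale (SE 0.18, quasi-likelihood adjusted p = 0.0930), of opposite sign to that of S100a6. Anxa2 measured 20.2 to 44.8 and 28.3 to 46.4 CPM with overlap.

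Of 26 other genes of classical monocytes 25 were in the table and 21 were tested. None passed an adjusted p of 0.05 in the quasi-likelihood test, 10 had an unadjusted p below 0.05 with higher values (8.94% of all tested genes did), and 19 of 21 log2 fold changes were above 0, with a median of 0.59. DESeq2 called 6, all higher, among them Anxa1, Crip1, F13a1, Fcnb and Mgst1, against 1.58% of all genes, and limma-voom 0. Without controls 4 and 6 the median was 0.42, and 6 genes had an unadjusted p below 0.05. Cd14, the co-receptor for lipopolysaccharide, measured 35.9 to 70.6 CPM in control and 59.4 to 94.96 CPM in diabetic libraries, and F13a1, of coagulation factor XIII, 76.2 to 148 and 144 to 355 CPM. Lyz2, lysozyme, which microglia also make, measured 1541 to 2154 and 1431 to 2281 CPM. Fcnb, Anxa1, Crip1, Mgst1 and Emb were the 5 genes of this list without overlap between groups, against 4.27% of all tested genes, named here after their values were seen. Their log2 fold changes were 1.86, 0.79, 1.16, 0.94 and 1.28, with quasi-likelihood adjusted p-values of 0.0607 to 0.207.

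Genes of nonclassical monocytes, which patrol vessels and carry little CCR2, were on both sides of 0. Of 14 genes 8 were tested, with 4 log2 fold changes above 0 and 4 below. The quasi-likelihood test called 0 (2 higher and 1 lower with an unadjusted p under 0.05, against 8.94% and 10% of all tested genes). Limma-voom called 0 and DESeq2 2 (Spn higher and Dusp16, a phosphatase of MAP kinases, lower), against 3.34% of all genes by DESeq2. Dusp16 measured 22.6 and 26.7 CPM in controls 4 and 6, 5.00 to 8.02 CPM in the other controls and 2.76 to 6.30 CPM in diabetic libraries. Without controls 4 and 6, 9 genes were tested, with 7 log2 fold changes above 0 and a median of 0.66 in place of 0.096. Spn, the sialoglycoprotein CD43 used to tell rat monocyte subsets apart, measured 7.86 to 22.6 CPM in control and 31.0 to 36.1 CPM in diabetic ones, a difference of 1.09 on the log2 scale (SE 0.35, quasi-likelihood adjusted p = 0.0991). Treml4 had 0 to 3 counts in control and 0 to 9 in diabetic libraries, and Ace 2 to 28 and 0 to 9, and neither was tested.

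**Figure D2:**
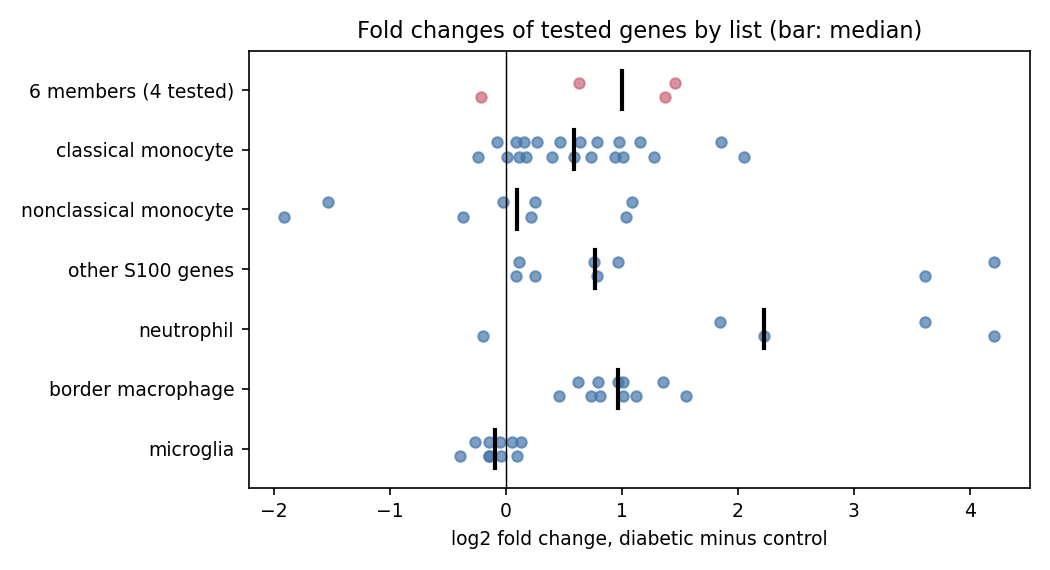
Log2 fold changes (diabetic minus control, horizontal axis) of the tested genes of 7 lists, 1 point per gene, with the median as a bar. The medians are 1.00 for the members, 0.59 for other classical monocyte genes, 0.096 for nonclassical monocyte genes, 0.77 for other S100 genes, 2.22 for neutrophil, 0.97 for border macrophage and -0.094 for microglia markers.

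Markers of other cells that carry CD11b were measured beside the members. The 11 border macrophage markers summed to 456 to 961 CPM in control and 824 to 1799 CPM in diabetic libraries, with 11 of 11 log2 fold changes above 0. The quasi-likelihood test called 0 of them (7 at an unadjusted p below 0.05, all higher, against 8.94% of all tested genes, and 3 without controls 4 and 6), limma-voom 0 and DESeq2 6, against 1.58% of all genes, among them F13a1, which is also on the classical monocyte list. Of 12 neutrophil markers 5 were tested, with 4 above 0. All 5 had an unadjusted p below 0.05 (4 higher and 1 lower), 2 were higher and 1 lower without overlap, and the quasi-likelihood test called 0, limma-voom 0 and DESeq2 2, S100a8 and S100a9. S100a8 and S100a9 stand on this list as well as the S100 list. The sum of the neutrophil markers overlapped (303 to 382 and 308 to 368 CPM), Csf3r, the G-CSF receptor, made up 93.3% of it, and Ltf, Mpo and Lcn2 were at 0 in every library. Dendritic cell markers summed to 17.0 to 21.99 and 20.5 to 28.2 CPM, with Cd209a at 0. Lymphocyte markers summed to 3.03 to 5.03 and 3.60 to 8.92 CPM, with Cd3d, Cd3g, Ms4a1 and Nkg7 at 0. Platelet markers summed to 15.1 to 29.4 and 22.7 to 47.8 CPM, with Gp1bb at 0. Pf4, which is also on the border macrophage list, made up 75.8% of the platelet sum. Of the 4 platelet markers tested, 1 log2 fold change was above 0 and 3 were below. Diabetic 4 had the highest sum of dendritic cell, lymphocyte and platelet markers as well as the highest Plac8, S100a4 and S100a6, whereas border macrophage markers were highest in diabetic 1. The part of these cells in the values of the members was not tested.

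The members did not vary together as 1 block. Over the 9 libraries Pearson's r of log2 CPM was 0.82 between Plac8 and S100a4, 0.81 between S100a4 and S100a6, 0.49 between Plac8 and S100a6 and -0.28 to -0.09 between Fn1 and the others. After removal of each group's mean, r was 0.61, 0.66 and -0.03 for the first 3 pairs. These are descriptions over libraries that share their depth and handling, with no test.

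The genes whose levels over the 9 libraries were most like those of each member, of 11747 genes, were taken by Pearson's r. For S100a4 they were Churc1 (r = 0.99), Tomm7 (0.99) and Sf3b5 (0.97), and for Plac8 Uqcrq (0.98), Rplp1 (0.97) and RGD1561778 (0.96). Tomm7 encodes a small subunit of the mitochondrial import pore, Sf3b5 a splicing factor subunit, Uqcrq a subunit of respiratory complex III and Rplp1 a ribosomal protein. None of these is on the lists of monocyte genes. For S100a6 they were Dlgap5 (0.97), Cdkn3 (0.96) and Aldoart2 (0.95), the first 2 of them genes of the cell cycle. For Fn1 they were Vwf (0.91), Coq2 (0.90) and Net1 (0.89), with Spearman's rank correlations of 0.68, 0.87 and 0.58. All these genes were picked for the highest r, so the values are high by selection and were not tested. Vwf, von Willebrand factor of endothelial cells, measured 24.2 CPM in control 1 and 0.129 to 6.30 CPM in the other 8 libraries.

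Levels were also compared by transcript length, a comparison added after these values were seen. A reference transcript length was at hand for 5206 of 11748 tested genes (44.3%), the S100a4 transcript at 653 bases and that of S100a6 at 472 bases among them. Plac8 and Fn1 had none, so a length check over the members as a set is void. The median log2 fold change was 0.41 for the 370 genes up to 600 bases, 0.18 for the 902 genes up to 1200 bases, 0.016 up to 2400 bases, -0.10 up to 4800 bases and -0.21 for the 166 genes above that. In the shortest class the median deviation from each gene's mean was 0.098 to 0.41 in diabetic libraries and -0.30 to -0.0079 in control libraries, highest in diabetic 4.

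**Figure D3:**
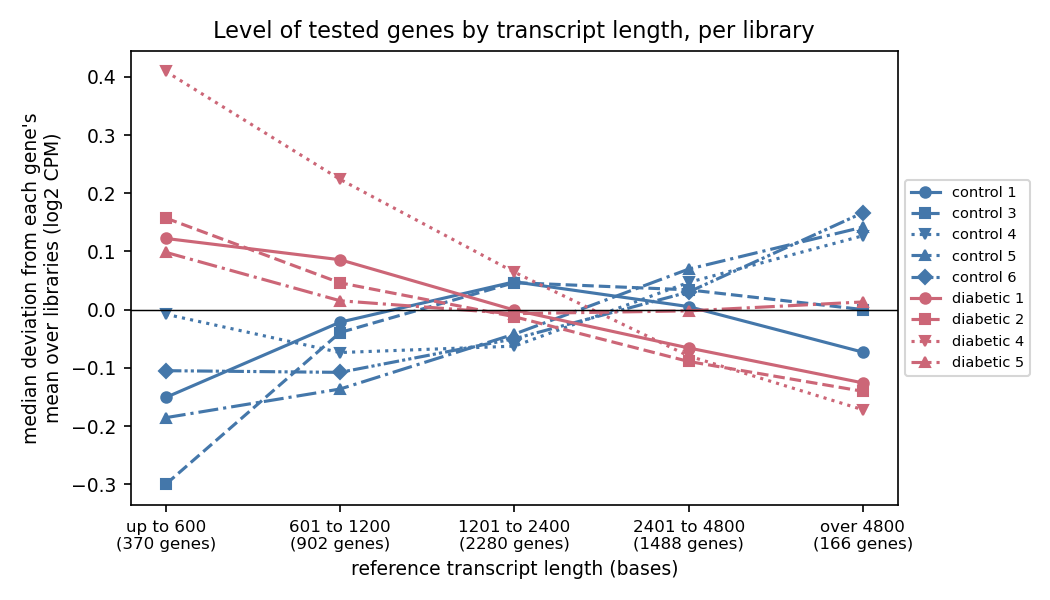
Median deviation of tested genes from their own mean over the 9 libraries (log2 CPM, vertical axis) in 5 classes of reference transcript length (horizontal axis), 1 line per library. Diabetic libraries (red) lie above control libraries (blue) in the 2 shortest classes, and diabetic 4 is highest in the shortest at 0.41.

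Set against genes of their own length, 32.4% of genes up to 600 bases and 8.54% of those above 600 and up to 1200 bases, the class of S100a4, had a log2 fold change at or above that of S100a4. For S100a6, in the shortest class, 4.05% did. With offsets that follow transcript length within each library, the log2 fold change of S100a4 was 0.34 (SE 0.17, quasi-likelihood adjusted p = 0.286) in place of 0.63, and that of S100a6 was 1.00 (SE 0.57, quasi-likelihood adjusted p = 0.320) in place of 1.37. On that scale S100a4 measured 45.3 to 66.6 CPM in control and 52.9 to 88.0 CPM in diabetic libraries. S100a9, with 528 bases, kept a log2 fold change of 3.24 and no overlap between groups, while S100a1, with 285 bases, had 0.60 and overlapped. For Plac8 the part of transcript length was not tested.

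**Figure D4:**
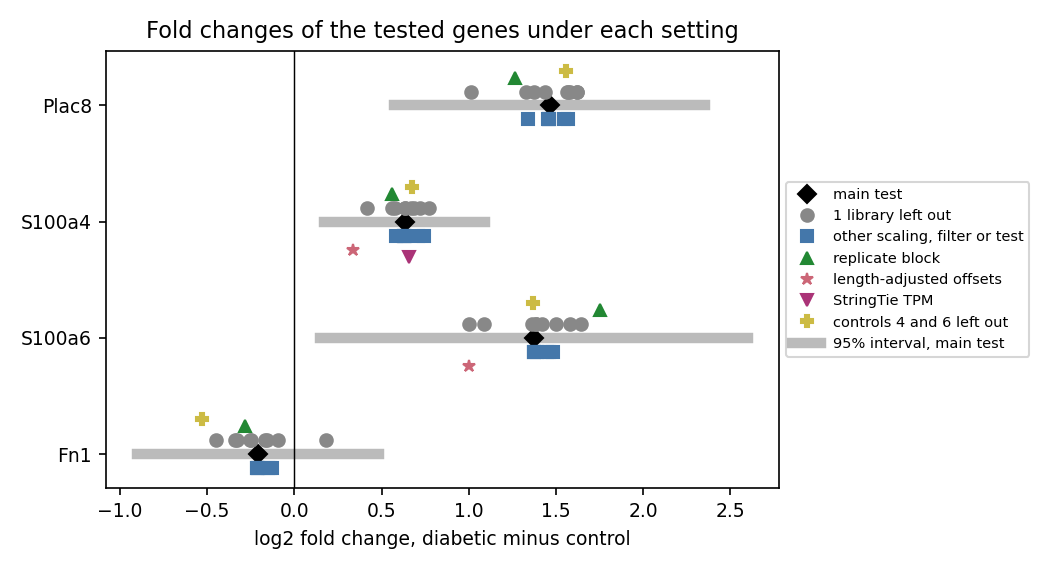
Log2 fold changes (diabetic minus control, horizontal axis) of the 4 tested members in edgeR's quasi-likelihood test, with its 95% interval in grey, and under each alternative. Values for Plac8 run from 1.01 to 1.62, for S100a4 from 0.34 to 0.77 and for S100a6 from 1.00 to 1.75, all above 0, while Fn1 runs from -0.53 to 0.18.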

How the data were processed

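Retinal CD11b-positive cells were profiled by RNA-seq after SmartSeq v4 preamplification and Nextera XT library preparation, per the labels' protocols. The submitters' processing notes name bcl2fastq 2.18.0.12, TopHat2 2.0.14, StringTie 1.2.4, edgeR and build Rnor_6.0. Neither the counting program nor the use of strand is named in the sources used here. The authors deposited raw counts per gene symbol, and a comparison table whose log2 fold changes and p-values are the authors' own. TPM values per assembled transcript were made with StringTie, per the file headers.

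Counts were filtered with filterByExpr (minimum count 10, minimum total 15), scaled by TMM and tested with edgeR 4.0.16 in R 4.3.3 (robust quasi-likelihood, Benjamini-Hochberg over all 11748 genes, threshold 0.05). The procedure was tested on simulated data. The SE is the log2 fold change over the normal quantile of its p. Alternatives used DESeq2 1.42.0 and limma 3.58.1, other scalings and filters, TPM, a replicate block, and leaving out each library. Likeness used log2 CPM with prior count 2, and TPM tests kept genes at 1 TPM or more in at least 4 libraries. The members and lists were chosen with earlier results of these data known. Named genes were the members, context genes fixed by name, the 3 genes most like each member, and the main markers. No 2 libraries were near duplicates (lowest chi-square 11.7 per degree of freedom). Ly6c was not analysed here, and some genes of the lists are not reported here.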

Additional observations from a re-analysis of the deposited data

Results flagged for a closer look

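In groups of 4 or 5 libraries, a library was singled out where its gap to the nearest other library was a large part of the group's range (above Dixon's 95% critical value). Of 10 groups of values examined over the members with any count, 4 were singled out this way. Chance does so in about 1 in 20 groups, but both Vcan groups hold 1 library with counts and the rest at 0, so that they meet the criterion by construction.

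Plac8 in diabetic 4 measured 16.2 CPM, where the other diabetic libraries had 5.80 to 6.94 CPM. Diabetic 4 had the lowest total count and the highest median level of transcripts up to 600 bases. Fn1 in control 1 measured 22.6 CPM, where the other controls had 7.09 to 10.3 CPM. Vcan had 0.378 CPM in control 1 (4 counts) and 0.197 CPM in diabetic 1 (2 counts), where all other libraries of the same group were at 0. Control 1 was the highest control for Fn1, Vcan and endothelial and mural cell markers.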

How the results depend on the processing

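The count of genes past the threshold, 8 of 11748 (5 higher), was 31 with upper-quartile factors (27 higher), 29 without factors (28 higher, with a median log2 fold change of 0.12 over all genes against 0.0018), 42 without a filter, 5 with CPM above 1 in 3 libraries, 594 by DESeq2 (282 higher), 4 by limma-voom and 2 on TPM, and 0 to 75 with 1 library left out (75 without control 1, and 0 to 2 without controls 3, 4 or 5 or diabetic 1, 2 or 4), and 0 with controls 4 and 6 left out. Members past it numbered 0 except by DESeq2 (1, Plac8). Members without overlap between groups numbered 1, but 0 on TPM and 0 with length-adjusted offsets, where Plac8 was not among the genes. They numbered 1 to 3 with 1 library left out (3 without diabetic 5, with S100a4 and S100a6). Diabetic 5 was the library that overlapped the controls for S100a4 and S100a6, so that count follows from its removal. The share over all genes in that setting is not given here. Fn1 was -0.45 to 0.18 with 1 library left out, above 0 without control 1. Replicate numbers 1, 4 and 5 are shared between groups, with correlations of deviations of 0.20, -0.11 and 0.016, and only number 1 correlated best with its own number, so the numbers were not taken as pairs. With the replicate block 0 genes passed (1129 at an unadjusted p below 0.05), and Plac8 had a log2 fold change of 1.27 (quasi-likelihood adjusted p = 0.447). Plac8, S100a4 and S100a6 kept their sign under every alternative that tested them (18, 20 and 19), with adjusted p-values of 0.00898 to 0.447, 0.0526 to 0.590 and 0.143 to 0.477. Vcan entered a test only without a filter and by DESeq2, so no value is given. The low counts of S100a6 and Vcan limit their precision, and the length-adjusted offsets and the removal of both controls were chosen after seeing the data.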
